A study of Mus musculus with 4 samples.

Results

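The microRNA hairpins described here are 10 members of a cluster on the mouse X chromosome, between the genes Slitrk2 and Fmr1, that is known for its expression in the testis: mmu-mir-743a, mmu-mir-743b, mmu-mir-871, mmu-mir-880, mmu-mir-881, mmu-mir-741, mmu-mir-463, mmu-mir-465c-1, mmu-mir-470 and mmu-mir-878, written from here on without the prefix for mouse. They were chosen by name and place out of 605 hairpins in the miRNA class of the deposited tables, with earlier results of these data known. All 10 were found, and 8 of them had a mean of at least 10 RPM (the authors' unit, reads scaled to a common library total) over the 4 libraries and entered the test; mir-741 and mir-880 lay below that level and are given as values.

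A microRNA is cut from a folded hairpin, and 1 arm of the hairpin, about the length of a small RNA read, is loaded into an Argonaute protein and pairs through its seed (bases 2 to 8) with messenger RNAs. The hairpins of this block belong to the rapidly evolving miR-506 family and are best known from spermatogenic cells, in which several X-linked microRNAs stay active while most genes of the X chromosome are silenced in meiosis. What each single member does is less well known. miR-743a has been described as a repressor of the mitochondrial malate dehydrogenase Mdh2, and miR-470 as one that pairs with the coding sequences of pluripotency factors such as Nanog in stem cells.

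Small RNA was sequenced from washed sperm of the cauda epididymis, the end of the duct in which sperm are stored, of adult C57BL/6 mice. The labels give 2 crosses, 1 called Original cross and the other Extra cross to wildtype, and 2 mice for each and 1 library per mouse. The labels name no Cre or LoxP allele, no parent and no number of generations for either cross, and they do not say in which cross the LoxP site of the study's title could be silenced. The values stand in 2 tables, 1 per replicate number, each with 1 library of each cross.

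The hairpins lie on the minus strand of chromosome X in the mouse build GRCm38, the assembly also called mm10. Of the hairpin names searched, RefSeq places 19 between chrX:66776757-66839125, a block of 62369 bases, all on that strand. Of these, 18 had a value in the tables. The block starts 115 kb beyond the end of Slitrk2 and ends 1839 kb before the start of Fmr1. No other GENCODE gene overlaps any of the 10 hairpins, so they are intergenic. In the direction of transcription the order is mir-465c-1, mir-470, mir-871, mir-881, mir-878, mir-880, mir-463, mir-741, mir-743b and mir-743a. Of the other mir-465 copies, mir-465d lies between mir-465c-1 and mir-470, and the rest come before mir-465c-1.

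All 10 hairpins matched a RefSeq entry (build GRCm38.p6), with 20 mature sequences that carry 18 distinct seeds. The sequences that follow are the members' arms that share a seed with another arm of the block, since such arms could pair with the same sites. The arm miR-465b-5p, which is not of a member, is added for comparison. Capitals mark the seed.
mmu-miR-743a-3p: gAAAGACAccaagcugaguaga
mmu-miR-743b-3p: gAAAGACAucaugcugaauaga
mmu-miR-743a-5p: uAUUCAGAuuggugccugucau
mmu-miR-871-5p: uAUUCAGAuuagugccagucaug
mmu-miR-465c-5p: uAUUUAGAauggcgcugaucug
mmu-miR-465b-5p: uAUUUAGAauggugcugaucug
mmu-miR-465c-3p: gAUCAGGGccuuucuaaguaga
The seed AAAGACA is held by miR-743a-3p and miR-743b-3p and by no other mature mouse microRNA of the table, which lists 1679 names. Counted from the 5′ end of miR-743a-3p, miR-743b-3p differs by C9U, A12U and G18A, all outside the seed. The seed AUUCAGA is likewise held by 2 arms alone, miR-743a-5p and miR-871-5p, so mir-743a shares 1 seed with mir-743b and the other with mir-871. The sequence of miR-465c-3p is shared by miR-465a and miR-465b, while on the 5p arm miR-465b differs from miR-465c by the single change C13U, with the same seed. That 5p seed is also held by miR-465a-5p and miR-465d-5p. Outside the members, miR-883a-3p and miR-883b-3p of the block share the seed AACUGCA.

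The other members are shown by their 3p arms, so that the ends of all 10 members' 3p arms can be compared; miR-881, miR-880, miR-878 and miR-741 end in UAGA, and miR-463, miR-470 and miR-871 do not.
mmu-miR-881-3p: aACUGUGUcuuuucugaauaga
mmu-miR-880-3p: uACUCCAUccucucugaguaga
mmu-miR-878-3p: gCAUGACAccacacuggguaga
mmu-miR-741-3p: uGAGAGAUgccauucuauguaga
mmu-miR-463-3p: uGAUAGACaccauauaagguag
mmu-miR-470-3p: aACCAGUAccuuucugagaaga
mmu-miR-871-3p: uGACUGGCaccauucuggauaau
Of the 10 members' 3p arms, 7 end in UAGA. Among all 709 mouse 3p sequences listed, 12 end so (1.69%), and 9 of those 12 come from this block. The hairpins themselves are less alike. Over 45 pairs of members, alignment gave a median identity of 59.5%, from 50.6% to 75.6%, the latter between mir-743b and mir-871. The deposited value is per hairpin, so it does not say which arm the reads came from.

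The depth behind these values was small. The value seen most often among the miRNA hairpins of a library, taken as 1 read, was 1.58 and 0.561 RPM in replicates 1 and 2 of the original cross and 0.642 and 0.238 RPM in those of the extra cross. With it 9 of the 10 hairpins came out as whole numbers of reads in every library, within 0.02 reads. The exception was mir-465c-1, whose hairpin sequence is identical to that of mir-465c-2 and whose value is the same as that copy's in every library, as when reads with several matches are divided. Intervals below are exact 95% binomial intervals on these read numbers. They cover counting error only, and reads without molecular identifiers are not independent molecules. Original-cross replicate 1, the base of every replicate 1 fold, also stood apart in make-up. Its RefSeq rows totalled 7926 RPM, against 131739 to 155300 RPM in the other libraries.

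Within the cluster mir-743b was the most abundant hairpin, and its level was higher in the extra cross of both tables. It had 85.3 RPM in the first and 25.2 RPM in the other mouse of the original cross, against 168.8 and 37.1 RPM in those of the extra cross, from 54, 45, 263 and 156 reads. All later values are given in this order, replicate 1 before replicate 2 within each cross. The groups overlapped, because the replicate 1 libraries of both crosses lay above the replicate 2 libraries. Extra over original was 1.98-fold (1.47 to 2.70) in the table of replicate 1 and 1.47-fold (1.05 to 2.10) in that of replicate 2.

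The near relative mir-743a had 17.4 and 6.73 RPM in the original-cross pair against 36.6 and 7.37 RPM in the extra-cross pair. It too was higher in the extra cross of both tables, 2.11-fold (1.09 to 4.45) and 1.09-fold (0.547 to 2.34), but in replicate 2 the interval includes no difference. Between these 2 hairpins the ratio was alike: mir-743b had 4.91, 3.75, 4.61 and 5.03 reads for each read of mir-743a in the 4 libraries. The intervals were wide, 2.54 to 10.4 and 1.95 to 7.79 in the original cross. In the extra cross they were 3.45 to 6.26 and 3.41 to 7.66. A moderate change of this ratio could therefore not be seen. Their sum was 102.7 and 31.98 RPM in the original-cross pair against 205 and 44.5 RPM in the extra-cross pair.

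The level of mir-881 was 36.3 and 19.6 RPM in the original-cross pair against 61.0 and 33.8 RPM in the extra-cross pair. The fold between the crosses was nearly the same in both tables, 1.68 (1.06 to 2.77) and 1.72 (1.18 to 2.57). Its neighbour 436 bases further along the strand, mir-878, had 26.9 and 16.8 RPM in the original-cross pair against 30.8 and 11.9 RPM in the extra-cross pair, which was 1.15-fold (0.648 to 2.13) and 0.706-fold (0.441 to 1.15). These 2 neighbours did not share a direction in both tables, whereas the adjacent mir-743b and mir-743a did.

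On the RPM scale mir-871 and mir-465c-1 were lower in the extra cross of both tables. The level of mir-871 was 53.7 and 29.7 RPM in the original-cross pair against 40.4 and 22.4 RPM in the extra-cross pair, 0.753-fold (0.488 to 1.18) and 0.752-fold (0.531 to 1.07), and both intervals include no difference. For mir-465c-1 the values were 51.99 and 18.2 RPM against 44.4 and 13.7 RPM, or 0.853-fold and 0.754-fold, with no interval because its values are not whole numbers of reads. The values of mir-470 were 41.1 and 17.4 RPM in the original-cross pair against 45.6 and 14.5 RPM in the extra-cross pair, higher in 1 table and lower in the other.

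The 3 rarest hairpins of replicate 2 lay close together on the chromosome. The hairpin mir-463 had 22.1 and 5.05 RPM in the original-cross pair against 37.9 and 5.94 RPM in the extra-cross pair, 1.71-fold (0.944 to 3.32) and 1.18-fold (0.532 to 2.87). Below the minimum for the test, mir-741 had 4.74 and 3.37 RPM against 15.4 and 1.19 RPM, from 3, 6, 24 and 5 reads, and went in opposite directions in the 2 tables. The lowest hairpin, mir-880, had 1.58 and 1.12 RPM against 12.8 and 1.66 RPM, from 1, 2, 20 and 7 reads. Its 2 extra-cross libraries lay above its 2 original-cross libraries, but with so few reads the fold was 8.13 (1.30 to 337) in replicate 1 and 1.48 (0.282 to 14.6) in replicate 2. Its log2 difference of 1.38 was 0.19 without extra-cross replicate 1.

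**Figure D1:**
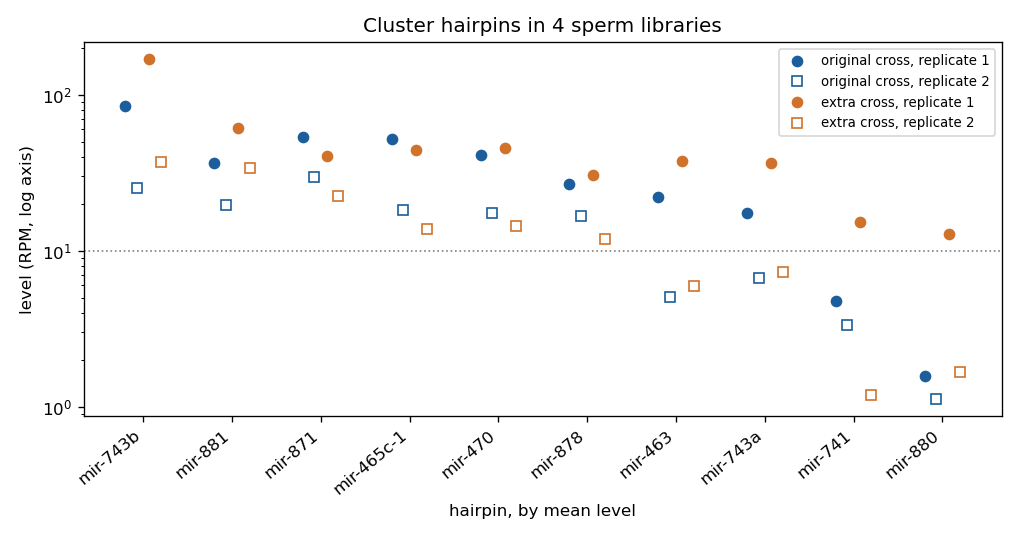
Level of the 10 hairpins (RPM, log axis) in the 4 libraries, 1 point per library, ordered by the mean; blue points are the original cross, orange points the extra cross, circles replicate 1, open squares replicate 2, and the dotted line is the minimum of 10 RPM for the test. The replicate 1 points lie above the replicate 2 point of the same cross for all 10 hairpins.

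Per hairpin length, which ran from 62 to 81 bases, the mean level over the 4 libraries was 10.3 RPM per 10 bases for mir-743b, 4.83 for mir-881, 4.75 for mir-871, 3.96 for mir-465c-1, 3.95 for mir-470, 2.77 for mir-878, 2.74 for mir-743a, 2.37 for mir-463, 0.870 for mir-741 and 0.551 for mir-880. Of the steps between neighbours in this order 3 held in each of the 4 libraries: mir-743b over mir-881, mir-470 over mir-878 and mir-463 over mir-741. All other neighbours changed places in at least 1 library. Even the first rank was not fixed, since in original-cross replicate 2 mir-871 (29.7 RPM) lay above mir-743b (25.2 RPM).

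The libraries of the same cross differed more than the crosses did. All 10 hairpins were higher in replicate 1 than in replicate 2 in both crosses, and so were 169 of all 206 tested miRNA hairpins (82%). Summed over the 10, the level was 341 and 143 RPM in the original-cross pair against 493.7 and 149.5 RPM in the extra-cross pair, a 2.38-fold and 3.30-fold gap between replicates of a cross against a 1.45-fold and 1.04-fold gap between crosses. The sum of the whole miRNA class showed gaps of 2.35-fold and 3.14-fold between the same libraries. A shift of the class between libraries was thus nearly as large as that of the cluster, and bulk RNA cannot tell fewer cells of a type from less RNA per cell.

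Divided by the class, the cluster took a nearly constant share. The 10 hairpins held 0.124% and 0.122% of the miRNA-class reads in the original cross and 0.112% and 0.106% in the extra cross, or 0.123% ± 0.00107 against 0.109% ± 0.00379 (SD, n = 2 each). The 2 groups did not overlap, and the exact two-sided permutation test gave p = 0.333, the smallest value that 2 against 2 libraries can give. On the RPM scale the direction of the sum was the opposite (log2 fold change 0.30, exact permutation p = 0.667), because the class as a whole was 1.60-fold and 1.20-fold higher in the extra-cross library of the 2 tables. The direction of the cluster's sum therefore depended on the scale. Much of the class was mir-10b, with 85208.5 and 33062.4 RPM against 151120 and 45025.6 RPM. Another large part was mir-10a, with 50396.7 and 21536.5 RPM against 111065 and 26893.3 RPM. The whole class summed to 275809 and 117322 RPM against 441544 and 140437 RPM. A share of the class thus depends strongly on these hairpins, and the cluster's share of the remaining class was not computed.

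**Figure D2:**
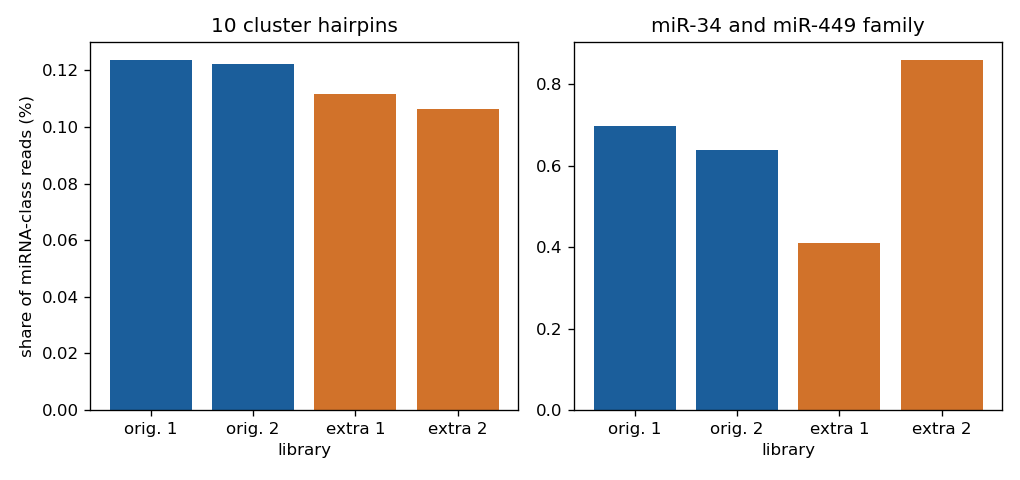
Share of all miRNA-class reads (%) held by the 10 cluster hairpins (left) and by the miR-34 and miR-449 family (right), 1 bar per library, with an axis of its own for each panel; blue is the original cross and orange the extra cross. The cluster's share lay between 0.106% and 0.124%, while that of the miR-34 and miR-449 family ran from 0.411% to 0.860%.

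Single hairpins were also expressed as a share of the class, with the same dependence on mir-10b and mir-10a. In the extra cross of both tables mir-871 (0.470-fold and 0.628-fold), mir-465c-1 (0.533-fold and 0.630-fold), mir-470 (0.693-fold and 0.697-fold) and mir-878 (0.717-fold and 0.590-fold) held a lower share of the class, and their groups did not overlap. The share of mir-470 was 149 and 148.2 RPM of the class (scaled to the miRNA reads alone) in the original cross and 103.2 and 103.3 in the extra cross. These rest on 26 and 31 reads against 71 and 61 reads. Replicates of mir-470 thus lay closer than such read numbers can resolve, and this closeness is no support for a difference. Higher in both tables were mir-743b (1.24-fold and 1.23-fold) and mir-881 (1.05-fold and 1.44-fold), with overlapping groups, and below the minimum mir-880 (5.08-fold and 1.24-fold). Against the class neither mir-743a (1.31-fold and 0.915-fold) nor mir-463 (1.07-fold and 0.984-fold) nor mir-741 (2.03-fold and 0.295-fold) kept a direction.

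These counts lie close to those of the class. Of the 8 tested members 4 had non-overlapping groups in share, against 39.8% of the 206 tested miRNA hairpins. A lower share in both tables was seen in 4 of the 8, against 45.1% of the class, and a higher share in both in 2 of the 8, against 20.9%. In RPM none of the 8 had non-overlapping groups, against 18% of the class. The level was higher in the extra cross of both tables in 4 of the 8 (42.7% of the class) and lower in both in 2 (23.3%).

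**Figure D3:**
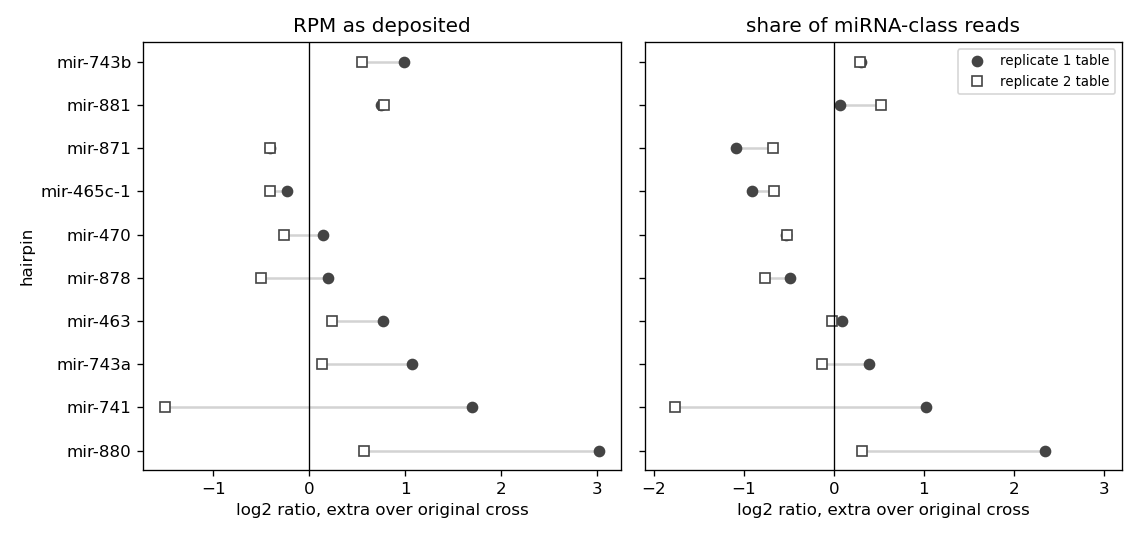
Log2 ratio of the extra over the original cross within the table of replicate 1 (filled circles) and replicate 2 (open squares), on the RPM scale (left) and as a share of the miRNA class (right), for the 10 hairpins in order of mean level. On the share scale mir-871, mir-465c-1, mir-470 and mir-878 lie left of 0 in both tables, and mir-743b, mir-881 and mir-880 lie right of 0 in both.

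None of the 8 tested hairpins passed limma across all 760 small RNA features at a Benjamini-Hochberg adjusted p of 0.05. The log2 fold changes, on the log2(RPM + 1) scale, were 0.76 ± 0.95 (SE) for mir-743b, 0.74 ± 0.54 for mir-881, 0.57 ± 0.90 for mir-743a, 0.47 ± 1.08 for mir-463, -0.05 ± 0.74 for mir-470, -0.14 ± 0.61 for mir-878, -0.30 ± 0.79 for mir-465c-1 and -0.40 ± 0.54 for mir-871, each with a limma adjusted p of 0.995. The smallest unadjusted p among them was that of mir-881 (limma, 0.229). Of all 760 features 0% passed, and 14.7% had an unadjusted p below 0.05, none of them among the 8. With the replicate number as a block in limma, 22.5% of the 760 features passed and none of the 8 did. The median over the 8 was 0.21, beside 0.20 for the 206 tested hairpins and -0.12 for all 760 features. A fit with 1 library left out brings the gap between replicates into the value, and that gap exceeds the one between crosses. A change of sign in such a fit therefore does not show that 1 library sets the direction. Without original-cross replicate 2 or without extra-cross replicate 1, mir-743a (-0.05 and -0.51), mir-743b (-0.10 and -0.32) and mir-463 (-0.49 and -0.77) turned negative. Without original-cross replicate 1 or without extra-cross replicate 2, mir-871 (0.02 and 0.02), mir-465c-1 (0.43 and 0.51), mir-470 (0.55 and 0.74) and mir-878 (0.18 and 0.51) turned positive. The value of mir-881 stayed positive in each of these 4 fits, from 0.31 to 1.17.

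Ratios between hairpins of 1 library do not change with its scaling, so they were compared as well; this comparison was added after the values had been seen. Over the 28 pairs of the 8 tested members, 20 ratios moved the same way in both tables, and 12 (42.9%) did not overlap between the crosses. Among all 21115 pairs of tested miRNA hairpins 66.3% moved the same way, beside 71.4% in the cluster, and 36% did not overlap. Pairs that share a hairpin are not independent, and both shares in the cluster are near those of the class.

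Out of the 28 pairs, mir-881 and mir-871, which lie 8.4 kb apart, were picked for the closest replicates among the non-overlapping ones. The closeness of their replicates follows from this choice and is no support for a difference between crosses. Reads of mir-881 per read of mir-871 were 0.676 (0.380 to 1.18) and 0.660 (0.418 to 1.03) in the original cross and 1.51 (1.09 to 2.11) and 1.51 (1.16 to 1.98) in the extra cross. That is 2.23-fold and 2.29-fold more in the extra cross within the 2 tables. For mir-743b over mir-871, the 2 members with the most similar hairpins, the ratio was 1.59 (1.02 to 2.52) and 0.849 (0.558 to 1.29) in the original cross and 4.17 (3.16 to 5.59) and 1.66 (1.28 to 2.17) in the extra cross. Here the replicates of a cross differed nearly as much as the crosses, and the lower extra-cross value lay just above the higher original-cross value. This pair too was picked with the values seen, and its difference between crosses (log2 1.18) was the largest of the 28. Its size is therefore no support for a difference between crosses.

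**Figure D4:**
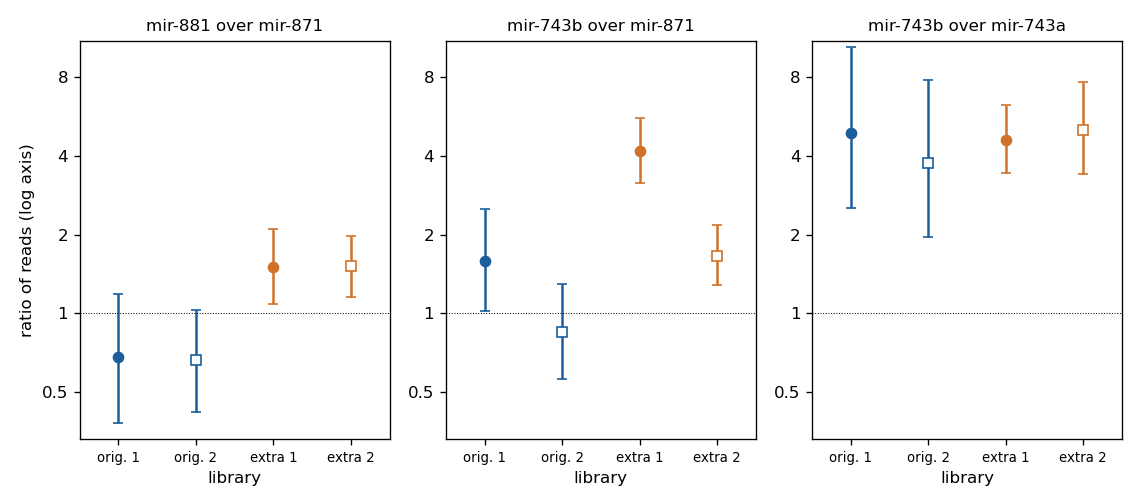
Ratio of reads between 2 hairpins of the same library (log axis) for mir-881 over mir-871, mir-743b over mir-871 and mir-743b over mir-743a; points are the 4 libraries and bars are exact 95% binomial intervals for counting error. The mir-881 to mir-871 ratio, picked for its close replicates, is 0.676 and 0.660 in the original cross and 1.51 in both extra-cross libraries. The mir-743b to mir-871 pair has the largest difference between crosses of the 28 pairs. For mir-743b over mir-743a the ratio stays between 3.75 and 5.03, with wide intervals.

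As a share of the 10 summed, the make-up of the cluster differed in the same sense. In the original cross mir-743b made up 25.0% and 17.6% of the sum, and in the extra cross it made up 34.2% and 24.8%. The part of mir-881 was 10.7% and 13.7% against 12.4% and 22.6%. Against these, mir-871 made up 15.7% and 20.7% in the original cross and 8.19% and 14.9% in the extra cross, mir-465c-1 15.2% and 12.7% against 8.98% and 9.19%, and mir-470 12.04% and 12.1% against 9.23% and 9.70%. Groups did not overlap for mir-871, mir-465c-1, mir-470 and the rare mir-880. How often this happens in other sets of hairpins was not computed. As a share of the whole class, groups did not overlap for 39.8% of the 206 tested miRNA hairpins, so such a split is common. These parts sum to a whole, so a larger part of mir-743b lowers the others. Without mir-743b the sum of the remaining 9 was 255.8 and 118.1 RPM in the original-cross pair against 324.9 and 112 RPM in the extra-cross pair.

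Along the chromosome, the members that held a lower share in the extra cross of both tables were the first 3 in the direction of transcription, mir-465c-1, mir-470 and mir-871, and mir-878. A higher share in both tables was held by mir-881, just before mir-878, and by mir-880 and mir-743b, after it. The remaining mir-463, mir-741 and mir-743a had no constant direction. Of the other tested hairpins of the block, mir-465a (0.463-fold and 0.691-fold) and mir-465c-2 (0.533-fold and 0.630-fold), near mir-465c-1, held a lower share in both tables, and so did mir-883a (0.828-fold and 0.761-fold) near the other end. The 2 mir-465b copies, with identical values, held a higher share in both (1.04-fold and 1.17-fold). Of 14 further names searched in the region 10 had values in the tables, 5 of them over the minimum, and none passed limma or had an unadjusted p below 0.05. Upstream of mir-465c-1, mir-465b-1 and mir-465b-2 had 16.2 and 9.72 RPM in the original-cross pair against 27.0 and 13.6 RPM in the extra-cross pair, identical for both copies, and were higher in both tables. Between them and mir-465c-1 the ratio was 0.311 and 0.533 in the original cross and 0.609 and 0.988 in the extra cross. Next to them mir-465a had 16.96 and 6.36 RPM against 12.6 and 5.26 RPM, lower in both.

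How the authors divided reads that match several mir-465 copies is not given in the sources used here, so the copies are uncertain one by one. Summed over all listed mir-465 copies the level was 153.3 and 62.3 RPM in the original-cross pair against 155.4 and 59.9 RPM in the extra-cross pair, which is 1.01-fold and 0.962-fold. The hairpin mir-883a, near mir-743b, had 30.0 and 11.2 RPM against 39.8 and 10.2 RPM. Others stayed below 12 RPM in every library: mir-471 had 11.1 and 2.24 RPM against 3.21 and 1.66 RPM, mir-883b 1.58 and 0.561 against 5.78 and 1.19 RPM, and mir-742 3.16 and 0.561 against 0 and 0.476 RPM, the 0 allowing up to 1.93 RPM (3 reads). Far from the block, 1149 kb toward Fmr1, mir-201 and mir-547 stood at 1 or 2 reads or none in each library.

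**Figure D5:**
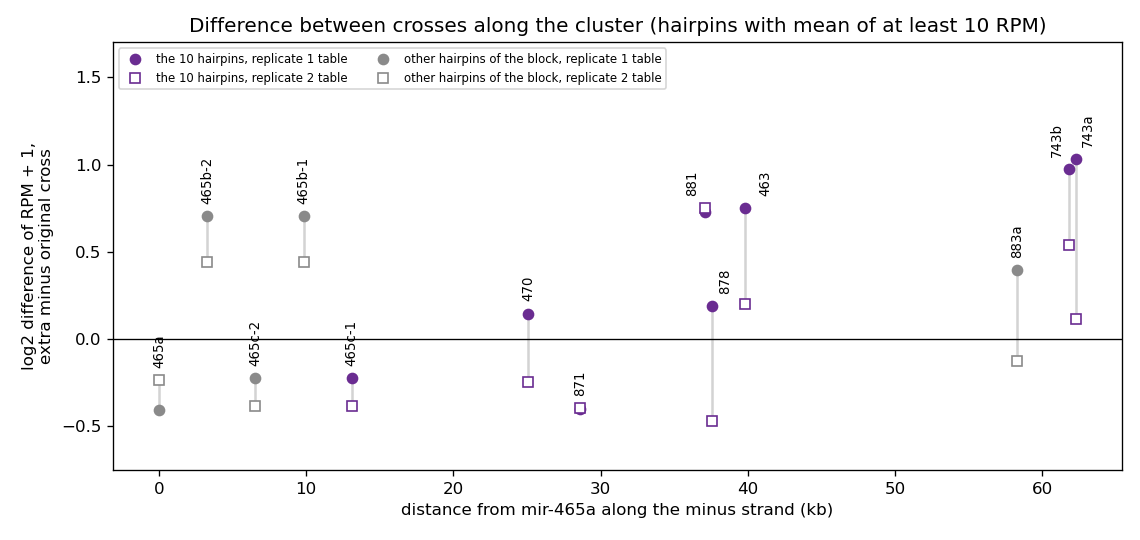
Log2 difference of RPM + 1 between the crosses (extra minus original) against the distance from mir-465a along the minus strand (kb), for hairpins of the block with a mean of at least 10 RPM; purple are members and grey the other hairpins, circles are the table of replicate 1 and open squares that of replicate 2. The points of mir-871 (-0.40 in both tables) and mir-881 (0.73 and 0.75) nearly coincide between tables, while mir-743a (1.03 and 0.11) and mir-878 (0.19 and -0.47) differ.

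The other microRNAs of spermatogenic cells, the miR-34 and miR-449 family, are a second group for comparison. Their sum was 1923 and 749.5 RPM in the original-cross pair against 1815 and 1207 RPM in the extra-cross pair, nearly all of it mir-34c, a microRNA of male germ cells, while mir-449a and mir-449c had at most 4.74 RPM. The cluster's sum came to 17.7% and 19.1% of the family's in the original cross and to 27.2% and 12.4% in the extra cross. The log2 difference between the crosses was 0.62 in replicate 1 and -0.63 in replicate 2, with a mean of -0.0052 (exact two-sided permutation p = 1 over 4 libraries). The difference had opposite signs in the 2 tables, and with 2 libraries a cross the test cannot give a p below 0.333.

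MicroRNAs of other cells also differed between the libraries, and their part in these values was not tested. All 5 microRNAs of epididymal epithelium were over the minimum and reached a sum of 4394 and 2055 RPM in the original-cross pair against 10408.5 and 5315 RPM in the extra-cross pair. Of 7 names for smooth muscle and stroma 6 were over the minimum, with sums of 8547 and 6264 RPM against 3382 and 5078 RPM, and mir-145b had no value in the tables. The 8 of blood summed to 6520 and 1229 RPM against 11186 and 1136 RPM. Each of these sums lay well above the cluster's sum.

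Other X-linked microRNAs were taken as a further list. Of 40 names searched 29 had values, 16 were over the minimum, and none passed limma; the unadjusted p was below 0.05 for 1 of them, mir-672 (limma, 0.0482). Of the 16, 7 were higher in the extra cross of both tables and 5 were lower, and their median log2 fold change was 0.20, the same as that of the class. The 4 most abundant were let-7f-2 (0.06), mir-92a-2 (0.26), mir-676 (-0.69) and mir-222 (-0.21). For let-7f-2 and mir-92a-2 the read numbers were not whole in every library, as when reads with several matches are divided. How much of these 2 values came from the X-linked copy is therefore not known. Fragments of the flanking gene Fmr1 came to 0.172 and 3.85 RPM in the original-cross pair against 4.49 and 1.87 RPM in the extra-cross pair over 6 listed transcripts, and Slitrk2 was not listed. The total of all RefSeq rows was 7926 RPM in original-cross replicate 1 and 155300 RPM in its partner, against 131739 and 136016 RPM for the extra-cross mice, so the first library stands apart and the Fmr1 values were not compared.

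By the distance between centred log2(RPM + 1) profiles, the hairpins outside the region most like the cluster's sum were mir-205 (0.237), mir-93 (0.240) and let-7d (0.244), against a median of 0.874 over 206 hairpins. Within the region mir-883a (0.202) came closer, and 20 hairpins were closer than any single member. Among the members themselves the closest profiles were those of mir-465c-1 and mir-470 (0.318) and of mir-743a and mir-743b (0.379), and the farthest were those of mir-871 and mir-463 (1.66).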

How the data were processed

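Per the labels' protocols, RNA of each mouse's sperm was extracted with Trizol, size-selected on a gel and made into libraries with the TruSeq small RNA kit, and 4 barcoded libraries shared a lane. CASAVA 1.8.2, Bowtie 1.1.2 and the build mm10 appear in the submitters' processing notes. How reads were trimmed, or divided among several matches, is not given in the sources used here. What the authors deposited are RPM values, per the file headers; the reads their total counts are not stated. A feature in 1 table only was given 0 in the other.

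Values were log2(RPM + 1). Features of 5 classes (miRNA, tRNA, piRNA, rRNA, repeats) averaging 10 RPM or more were fitted with limma 3.58.1 in R 4.3.3. The fit had a variance trend and no term but cross, and was adjusted over all 760 features. A run on simulated data drew the libraries independently, whereas same-numbered libraries here deviated together (r = 0.87). That run therefore does not show what the fit can find in these data. The RefSeq class was left out. The scale of the 4 libraries rests on 632859, 1782510, 1557770 and 4205690 reads, from the value of 1 read. Only part of all values are whole reads, so no count model was run. Single sums were compared by exact permutation. Python 3.11.15, pandas 2.3.3, scipy 1.17.1 and Biopython 1.88 were used, and matplotlib 3.10.9 for figures.

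Members, lists and settings were chosen with earlier results of these data known. All 10 members are named, with hairpins of the region, the 3 hairpins of most similar profile, and the 4 most abundant other X-linked microRNAs. Among the region's names searched, mir-882 is annotated on chromosome 12 and had no value.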

Additional observations from a re-analysis of the deposited data

How the results depend on the processing

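No member that was tested passed limma in any of the 12 alternatives: pseudocount 0.25 RPM, no filter, 3 other scalings, a replicate block, no variance trend, RefSeq kept, and each library left out. The lowest adjusted p of a member was 0.124. Median-ratio scaling moved the median of all features by 0.31 (log2) and turned mir-465c-1 (0.0064), mir-470 (0.26) and mir-878 (0.17) positive. Scaling to the miRNA class moved it by -0.46 and turned mir-741 (-0.24), the median of the members (-0.24) and their summed level (-0.17) negative. With a replicate block 171 of 760 features (22.5%) passed and none of the 8 tested members did; mir-741 and mir-880 were not in that fit. Same-numbered libraries deviated together (r = 0.87 over 760 features), but the labels do not say that the numbers mark pairs.

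With 1 library left out, which brings the gap between replicates into the value and assumes that the lone library varies like the other cross, 0 features and 0 members passed. The members' median ran from -0.78 to 0.95, their summed level from -0.56 to 1.16, the difference from the miR-34 and miR-449 family from -0.57 to 0.56, and the difference in share from -0.0165 to -0.0111 percentage points. Single hairpins ran from -0.77 to 1.72 (mir-463), -1.11 to 0.51 (mir-465c-1), -0.84 to 0.74 (mir-470), -1.19 to 1.71 (mir-741), -0.51 to 1.66 (mir-743a), -0.32 to 1.84 (mir-743b), -0.81 to 0.017 (mir-871), 0.19 to 2.56 (mir-880) and -0.79 to 0.51 (mir-878). Few reads limit mir-741 and mir-880 most.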
